A study of Mus musculus with 12 samples.

Results

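The 28 genes described here are the mouse genes for the synthesis of cholesterol and of fatty acids on a list of names, out of 24147 gene entries in the count files. They comprise 8 genes of the steps from acetyl-CoA to squalene (Acat2, Hmgcs1, Mvk, Pmvk, Mvd, Idi1, Fdps and Fdft1), 10 of the steps from squalene to cholesterol (Sqle, Lss, Cyp51, Tm7sf2, Msmo1, Nsdhl, Hsd17b7, Ebp, Sc5d and Dhcr7), 4 that regulate these steps or carry sterol (Srebf1, Srebf2, Insig1 and Stard4), and 6 of fatty acid synthesis (Acly, Acaca, Fasn, Elovl6, Scd1 and Scd2). All 28 passed the filter on low counts, which kept 14560 genes. RNA came from the epithelial cells that stay on the lens capsule once the fiber cell mass has been taken out of the lens of a living mouse, a procedure that stands in for cataract surgery. Capsules with their cells were taken at 0 h, right after the removal, or 48 h later, from mice 2 months old. Wild type (WT) mice were of strain C57BL/6, and fibronectin conditional knockout (FNcKO) mice were of mixed strain, C57BL/6 with 129 and FVB/N. Each of the 4 groups (WT 0 h, WT 48 h, FNcKO 0 h and FNcKO 48 h) had 3 libraries. Genotype and strain background coincide and cannot be told apart. The sources used here do not give the promoter that drives the recombinase, the deleted exons or the number of lenses in a library. The series calls its replicates biological triplicates and says no more of their origin, so p-values measure the spread between these libraries.

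Cholesterol is built from acetyl-CoA through mevalonate and isoprenoid units to squalene, which is closed to lanosterol and then trimmed and reduced to cholesterol. The genes of this pathway and of fatty acid synthesis are known targets of the membrane-bound transcription factors SREBP-2 and SREBP-1, encoded by Srebf2 and Srebf1. When sterol in the endoplasmic reticulum is low these factors are carried to the Golgi, cut and released to the nucleus, and when it is high INSIG proteins hold them back. The plasma membrane of lens cells, fiber cells above all, is unusually rich in cholesterol, and inherited or drug-induced blocks of its synthesis are known causes of cataract.

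Library totals ran from 8368160 to 10862573 counts, of which the 28 genes held 0.306% to 0.628%. Levels are given as counts per 1e6 after TMM scaling (CPM), a scaling that sets the bulk of genes level between libraries. Fn1, the gene targeted in the FNcKO mice, stood at 15.5 to 23.1 CPM in the WT 0 h libraries, 8.32 to 16.8 in FNcKO 0 h, 528 to 1515 in WT 48 h and 146 to 688 in FNcKO 48 h. The ranges of the genotypes overlapped at both times, and reads outside the deleted part do not check the knockout. Summed over 12 lens epithelium markers (Pax6, Foxe3 and Cdh1 among them), the level was 5996 to 9591 CPM at 0 h and 2565 to 5062 at 48 h. Markers of other cells were present too. The sum of 16 lens fiber markers, crystallins and fiber membrane proteins, ran from 40670.0 to 118720 CPM at 0 h and from 2511 to 37163 at 48 h. The sum of 15 macrophage and monocyte markers ran from 67.0 to 189.6 CPM at 0 h and from 204 to 846 at 48 h, and that of 8 neutrophil markers from 5.25 to 13.4 and from 67.6 to 668. Summed photoreceptor markers ranged over the 12 libraries from 279 to 6264 CPM, corneal markers from 360.4 to 2688, pigment cell markers from 18.9 to 461 and vascular endothelial markers from 24.9 to 93.2, and their part in the results was not tested. In such bulk RNA, fewer cells of a type and less RNA per cell cannot be told apart. The summed level of 10 adipocyte and sebaceous markers, cells that make much fatty acid, was at most 11.6 CPM in any library, with Cfd at 0 in all 12.

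Per kilobase of gene length, Scd2 stood above every other member. TMM-scaled RPKM, the CPM per kilobase, allows levels of different genes to be compared. On that scale Scd2, which encodes a stearoyl-CoA desaturase that puts a double bond into saturated fatty acids, averaged 424 RPKM over the 12 libraries, against 68.2 for Srebf1, 63.9 for Insig1, 52.5 for Acly and 45.8 for Hmgcs1. The lowest members were Stard4 at 6.63 RPKM, Tm7sf2 at 6.45 and Acat2 at 5.32. Scd1, the neighbouring paralog of Scd2 on chromosome 19, averaged 21.0 RPKM. Raw counts of a member in a library lay between 43 (Acat2) and 33082 (Scd2), so counting error was largest for Acat2.

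**Figure D1:**
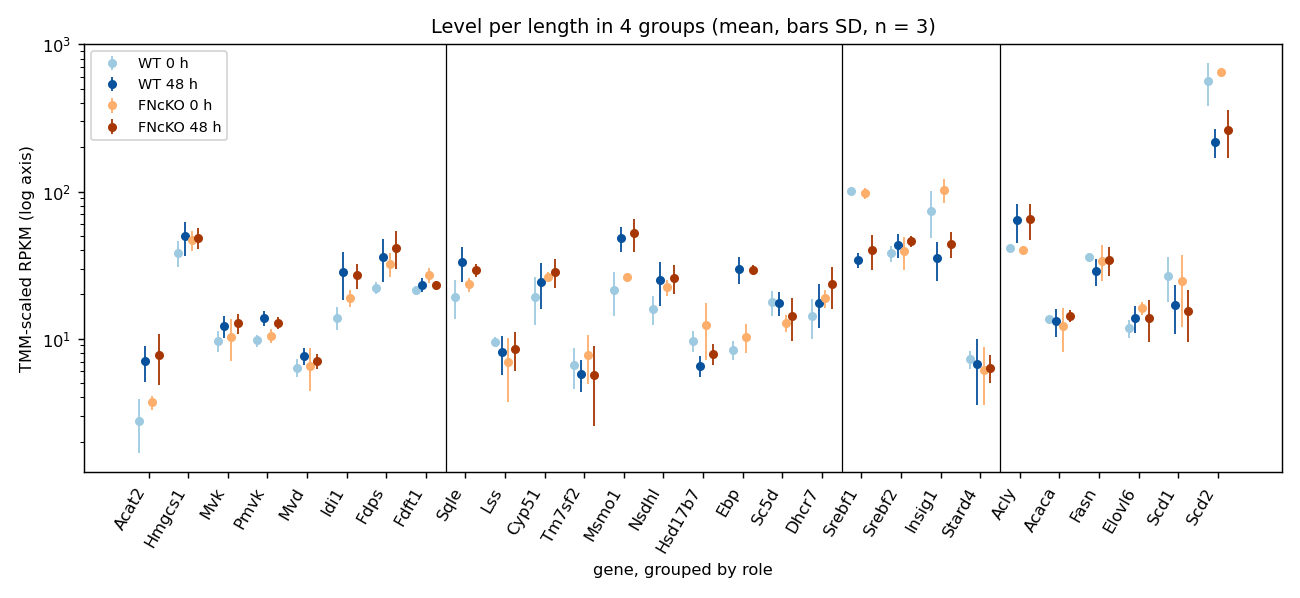
Level of each of the 28 genes per kilobase in the 4 groups, in TMM-scaled RPKM on a log axis, as mean with SD of 3 libraries, genes ordered by role. Scd2 lies highest in every group, at 561 RPKM in WT 0 h and 217 in WT 48 h, and Acat2 lowest in WT 0 h at 2.78.

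Between 0 h and 48 h some of these genes rose, others fell and most did not pass the test. In WT, 5 sterol synthesis enzymes (Ebp, Acat2, Msmo1, Idi1 and Sqle) rose 1.72-fold to 3.55-fold, while Srebf1, Insig1 and Scd2 fell 2.11-fold to 2.95-fold. In FNcKO, Ebp, Acat2 and Msmo1 rose 2.00-fold to 2.85-fold and the same 3 genes fell 2.32-fold to 2.48-fold. Called genes had an adjusted p under 0.05 in edgeR's quasi-likelihood test, with Benjamini-Hochberg adjustment over all 14560 genes. In WT 8 of the 28 members (28.6%) passed, against 32.6% of all genes, and in FNcKO 6 (21.4%) passed, against 24.8%. By direction, 5 members were higher and 3 lower in WT, where 19.1% and 13.5% of all genes were, and 3 were higher and 3 lower in FNcKO, where 14.9% and 9.9% of all genes were. The members' shares of calls were thus near those of all genes in both genotypes. The 0 h and 48 h libraries did not overlap for 10 of 28 members in WT, against 51.5% of all genes, and for 10 of 28 in FNcKO, against 37.5%. Without WT 0 h replicate 2 the WT count was 5 of 28, as Sqle, Acat2 and Insig1 did not pass. Without both 0 h replicate 1 libraries it was 6, as Sqle and Acat2 did not pass. Among all called genes 58.5% were higher in WT and 60.1% in FNcKO. With library totals in place of TMM as the scale these shares were 76.3% and 82.4%, the median log2 change of all genes was 0.23 and 0.29 in place of 0.02 and 0.00, and 9 members were higher and 2 lower in WT and 6 higher and 3 lower in FNcKO. All 6 members called in FNcKO were also called in WT, in the same direction.

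**Figure D2:**
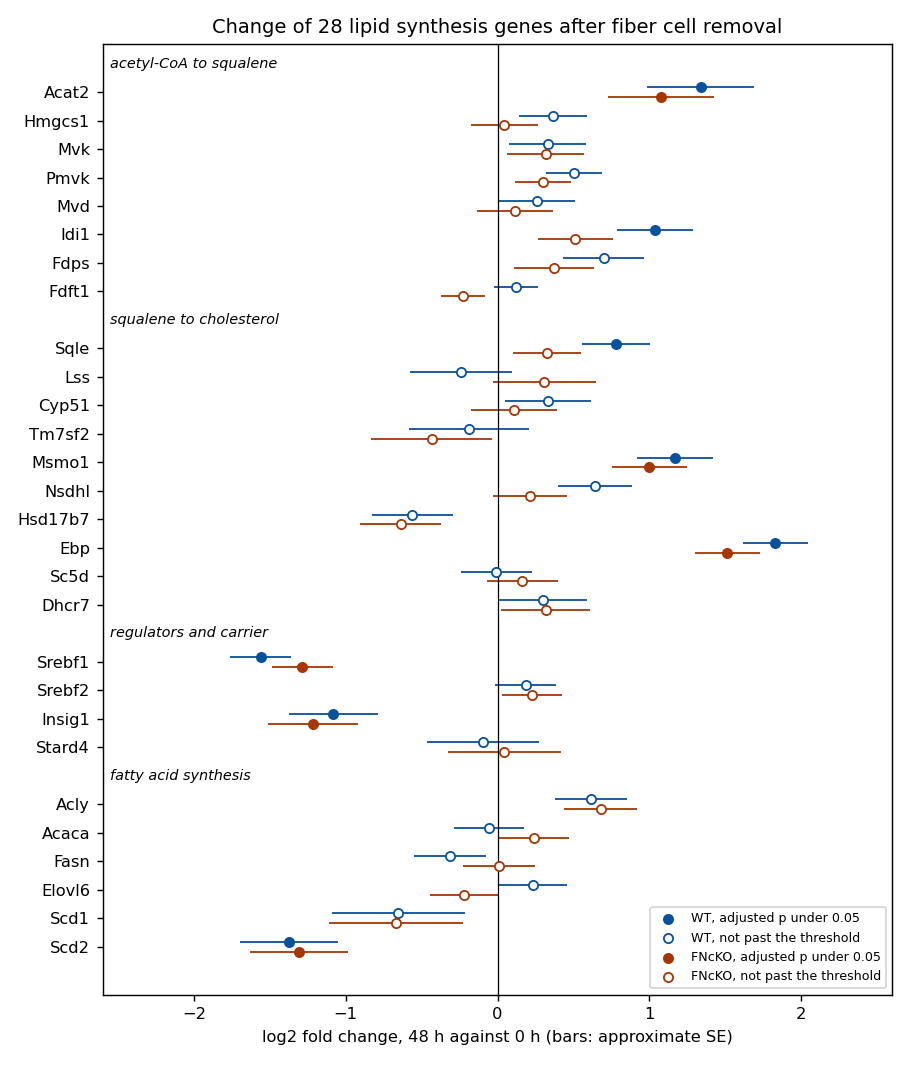
Log2 fold change at 48 h against 0 h of the 28 genes in WT and FNcKO, with approximate SE as bars; filled points passed an adjusted p of 0.05. Ebp lies farthest to the right in both genotypes (1.83 and 1.51), and Srebf1 in WT (−1.56) and Scd2 in FNcKO (−1.31) farthest to the left.

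The promoter sequences of 5 members are shown, Ebp and Msmo1 as genes that rose, Insig1 and Srebf1 as genes that fell, and Hmgcs1, which passed in neither genotype, for its match to the sterol regulatory element. RefSeq windows of the GRCm38.p6 build, the release behind mm10, run from 250 bases before to 50 after the start site and were found for 22 of the 28 genes. Each is written 5′ to 3′ on the strand of its gene. Capitals mark 2 motifs on either strand, the sterol regulatory element searched as TCACNCCAC and the CCAAT box (ATTGG where it lies on the other strand).
Hmgcs1, chr13:119690101-119690400, + strand: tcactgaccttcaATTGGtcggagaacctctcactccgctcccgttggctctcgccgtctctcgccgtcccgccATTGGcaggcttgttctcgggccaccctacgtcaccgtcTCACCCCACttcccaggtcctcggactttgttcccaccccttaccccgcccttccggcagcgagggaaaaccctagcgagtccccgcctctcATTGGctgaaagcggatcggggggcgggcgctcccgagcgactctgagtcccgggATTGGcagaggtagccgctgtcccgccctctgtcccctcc
Ebp, chrX:8193463-8193762, - strand: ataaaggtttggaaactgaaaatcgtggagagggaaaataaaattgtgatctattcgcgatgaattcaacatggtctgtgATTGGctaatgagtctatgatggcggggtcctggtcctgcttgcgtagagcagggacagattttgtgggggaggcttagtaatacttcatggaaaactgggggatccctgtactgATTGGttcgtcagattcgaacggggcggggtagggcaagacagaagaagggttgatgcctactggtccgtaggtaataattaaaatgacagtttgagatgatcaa
Msmo1, chr8:64733529-64733828, - strand: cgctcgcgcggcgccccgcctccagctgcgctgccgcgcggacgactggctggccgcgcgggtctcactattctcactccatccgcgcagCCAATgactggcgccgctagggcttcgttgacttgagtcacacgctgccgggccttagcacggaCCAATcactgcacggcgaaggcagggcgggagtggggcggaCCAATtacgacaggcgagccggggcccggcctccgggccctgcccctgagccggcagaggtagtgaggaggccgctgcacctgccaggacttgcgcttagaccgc
Insig1, chr5:28071162-28071461, + strand: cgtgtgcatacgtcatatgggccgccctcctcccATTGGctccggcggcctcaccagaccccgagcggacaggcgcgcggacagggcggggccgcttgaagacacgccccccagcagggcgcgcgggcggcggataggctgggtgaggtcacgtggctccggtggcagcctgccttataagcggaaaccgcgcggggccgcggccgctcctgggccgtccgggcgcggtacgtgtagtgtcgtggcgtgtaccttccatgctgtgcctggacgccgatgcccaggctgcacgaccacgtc
Srebf1, chr11:60220578-60220877, - strand: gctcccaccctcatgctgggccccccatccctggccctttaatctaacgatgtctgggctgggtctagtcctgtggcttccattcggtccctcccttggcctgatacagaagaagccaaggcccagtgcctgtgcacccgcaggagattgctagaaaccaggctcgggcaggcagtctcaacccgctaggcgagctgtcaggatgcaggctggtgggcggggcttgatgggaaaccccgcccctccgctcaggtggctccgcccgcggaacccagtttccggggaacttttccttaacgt
Of the 22 windows, that of Hmgcs1 (4.5%) held TCACNCCAC, which began at position −137 from the start site, against 1.24% of all 32851 windows and 1.01% of those of 10892 tested genes. CCAAT was in 16 of the 22 (72.7%), against 37.4% of all windows and 38.4% of those of tested genes. GGGCGG, the core of the GC box and not marked above, was in 18 of the 22 (81.8%), against 35.7% and 63.8%. None of the 3 motifs contains another. Among the genes that rose, Ebp had CCAAT boxes at −170 and −55, Msmo1 at −160, −96 and −55, Idi1 at −45 and −14, and Acat2 had none in this window. Of the genes that fell, Insig1 had 1 CCAAT box, at −216, and Srebf1 had none, and each had 3 GC boxes. Sqle, which rose in WT, and Scd2, which fell in both genotypes, are among the 6 genes without a window, so these matches describe only part of the called genes. Each window belongs to 1 start site, and for Srebf1, with 3 windows listed, the one nearest the start of the gene in the count files is shown. A match is a match of letters and no measure of binding. Only exact matches within the window were counted, so a window without a match is not shown to lack the element.

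The first arm of the pathway makes squalene from acetyl-CoA. Of its 8 genes, 2 rose in WT and 1 in FNcKO and none fell, with a median log2 change of 0.43 in WT and 0.31 in FNcKO. The share called was 25% in WT and 12.5% in FNcKO, below the 32.6% and 24.8% of all genes. Acat2 (chromosome 17, 12943042 to 12960725, mm10) encodes the thiolase that joins 2 acetyl-CoA to acetoacetyl-CoA. It stood at 4.31, 4.59 and 8.43 CPM in WT 0 h replicates 1 to 3 and at 18.7, 10.6 and 14.4 at 48 h. In FNcKO it stood at 7.38, 7.04 and 8.61 CPM at 0 h and at 9.30, 18.2 and 20.9 at 48 h. All 48 h libraries were above all 0 h libraries of their genotype, and FNcKO 48 h replicate 1 came closest to the 0 h range. The rise was 2.53-fold in WT (log2 1.34 ± 0.35 SE, edgeR adjusted p = 0.0111) and 2.11-fold in FNcKO (log2 1.07 ± 0.35, edgeR adjusted p = 0.0376). The SE here and below is approximate, taken from the log2 change and its F statistic, and 95% intervals are normal intervals from that SE. The FNcKO call was lost in 9 of 21 alternative analyses, among them the ones that left out any 1 FNcKO 0 h library or FNcKO 48 h replicate 2 or 3. Its neighbour Acat3, a near-identical copy, went from 1, 2 and 3 counts to 72, 39 and 21 in WT and from 0, 0 and 1 to 17, 14 and 73 in FNcKO. How reads that match both genes were counted is not given, so the level of Acat2 is uncertain.

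Idi1 (chromosome 13, 8885606 to 8892396) encodes the isomerase that turns isopentenyl into dimethylallyl diphosphate, the starting unit of isoprenoid chains. Its WT levels were 34.4, 37.6 and 47.6 CPM at 0 h and 109, 50.7 and 86.2 at 48 h. The groups did not overlap, but replicate 2 at 48 h lay just above the highest 0 h library. The rise was 2.05-fold in WT (log2 1.04 ± 0.25, edgeR adjusted p = 0.00688). In FNcKO the levels were 47.2, 61.4 and 53.6 CPM at 0 h and 60.3, 86.8 and 84.3 at 48 h, with 1 library inside the 0 h range, and the log2 difference of 0.51 ± 0.25 did not pass (edgeR adjusted p = 0.150). The difference between these responses, −0.53 (95% interval −1.21 to 0.16), did not pass either (edgeR adjusted p = 0.945).

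The other 6 genes of this arm passed in neither genotype in edgeR. Pmvk, which encodes the kinase that adds the second phosphate to mevalonate, had all 48 h libraries above all 0 h libraries in both genotypes. It went from 14.7 ± 1.41 CPM (SD, n = 3) to 20.8 ± 2.38 in WT (log2 0.50, edgeR adjusted p = 0.0529) and from 15.8 ± 1.76 to 19.4 ± 1.94 in FNcKO (log2 0.30, edgeR adjusted p = 0.266). DESeq2 did call Pmvk in WT (DESeq2 adjusted p = 0.0425). Fdps, farnesyl diphosphate synthase, had 32.1, 29.8 and 35.5 CPM in WT 0 h and 63.8, 32.9 and 61.4 in WT 48 h, where replicate 2 stayed in the 0 h range and the other libraries did not (log2 0.70, edgeR adjusted p = 0.0589). Hmgcs1, the HMG-CoA synthase, was the most abundant of this arm per length and stood at 138 ± 27.5 and 177 ± 46.5 CPM in WT and at 167 ± 26.4 and 173 ± 28.2 in FNcKO (log2 0.37 and 0.04). Mvk, mevalonate kinase, had log2 values of 0.33 and 0.32, and Mvd, the decarboxylase that yields isopentenyl diphosphate, 0.26 and 0.12. Fdft1, squalene synthase, which commits the pathway to sterols, had 0.12 in WT and −0.23 in FNcKO. All its FNcKO 48 h libraries were below the 0 h ones, but the nearest were almost level, at 69.35 and 69.48 CPM. The Fdft1 gene overlaps Ctsb, a lysosomal protease gene of 4902 to 17137 counts a library, by 774 bases, and the strand setting of the counting is not given.

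The second arm turns squalene into cholesterol. Of its 10 genes 3 rose in WT and 2 in FNcKO and none fell, with median log2 changes of 0.32 and 0.26. The share called, 30% and 20%, was near the 32.6% and 24.8% of all genes. Ebp (chromosome X, 8185331 to 8193512) encodes the isomerase that shifts a double bond within the sterol ring, and its promoter is the second shown above. Its WT levels were 12.4, 14.6 and 16.7 CPM at 0 h and 57.7, 39.0 and 58.8 at 48 h. Its FNcKO levels were 21.7, 13.8 and 18.4 CPM at 0 h and 46.5, 53.2 and 54.1 at 48 h. The lowest 48 h library was well above the highest 0 h library in both genotypes. Ebp rose 3.55-fold in WT (log2 1.83 ± 0.21, edgeR adjusted p = 7.00e-05) and 2.85-fold in FNcKO (log2 1.51 ± 0.21, edgeR adjusted p = 0.000375). It passed in all 21 alternative analyses of either comparison.

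Msmo1 (chromosome 8, 64718145 to 64733578) encodes the methylsterol monooxygenase that starts the removal of methyl groups from the sterol ring. In WT it had 27.5, 36.6 and 53.2 CPM at 0 h and 99.9, 68.2 and 95.1 at 48 h. In FNcKO it had 45.8, 49.9 and 47.5 CPM at 0 h and 67.7, 112 and 106 at 48 h. The groups did not overlap, and the lowest 48 h libraries were WT replicate 2 and FNcKO replicate 1. The rise was 2.25-fold in WT (log2 1.17 ± 0.25, edgeR adjusted p = 0.00335) and 2.00-fold in FNcKO (log2 1.00 ± 0.25, edgeR adjusted p = 0.0102).

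Sqle (chromosome 15, 59315092 to 59331193), squalene epoxidase, is a rate-limiting enzyme of the pathway. In WT it had 39.3, 50.1 and 69.6 CPM at 0 h and 117, 69.2 and 86.8 at 48 h, so that 48 h replicate 2 and 0 h replicate 3 were level and the groups overlapped. The rise in WT was 1.72-fold (log2 0.78 ± 0.22, edgeR adjusted p = 0.0174), and it was not called without WT 0 h replicate 1 or 2 or without WT 48 h replicate 1. In FNcKO it had 57.4, 63.8 and 71.6 CPM at 0 h and 73.0, 89.4 and 78.9 at 48 h. These groups did not overlap, but by a narrow gap, and the log2 difference of 0.32 did not pass (edgeR adjusted p = 0.317). The responses differed by −0.46 on the log2 scale (95% interval −1.08 to 0.16), which did not pass (edgeR adjusted p = 0.945).

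The remaining 7 genes of the second arm passed in neither genotype. Nsdhl, the dehydrogenase that acts after Msmo1, went from 35.4 ± 7.92 to 55.2 ± 18.2 CPM (SD, n = 3) in WT (log2 0.64, edgeR adjusted p = 0.0584) and from 49.5 ± 6.12 to 57.3 ± 12.5 in FNcKO. Hsd17b7, the ketosteroid reductase of the same demethylation, had log2 values below 0 in both genotypes, at −0.56 (edgeR adjusted p = 0.123) and −0.64 (edgeR adjusted p = 0.0987). Its WT libraries had 42.4, 38.5 and 52.5 CPM at 0 h and 33.3, 24.3 and 32.7 at 48 h, without overlap. Tm7sf2, a sterol 14-reductase, also lay below 0, at −0.19 and −0.43. Lss, which closes the ring to lanosterol, had −0.24 in WT and 0.31 in FNcKO, and Sc5d, the lathosterol desaturase, −0.01 and 0.16. Cyp51, the lanosterol demethylase, had 0.33 and 0.11, and Dhcr7, the last reductase before cholesterol, 0.30 and 0.32. Across all 18 enzymes of both arms the log2 value was above 0 for 14 in WT and 15 in FNcKO, against 50.8% and 50.1% of all tested genes. The enzymes varied together by library, so these signs are not independent of each other.

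**Figure D3:**
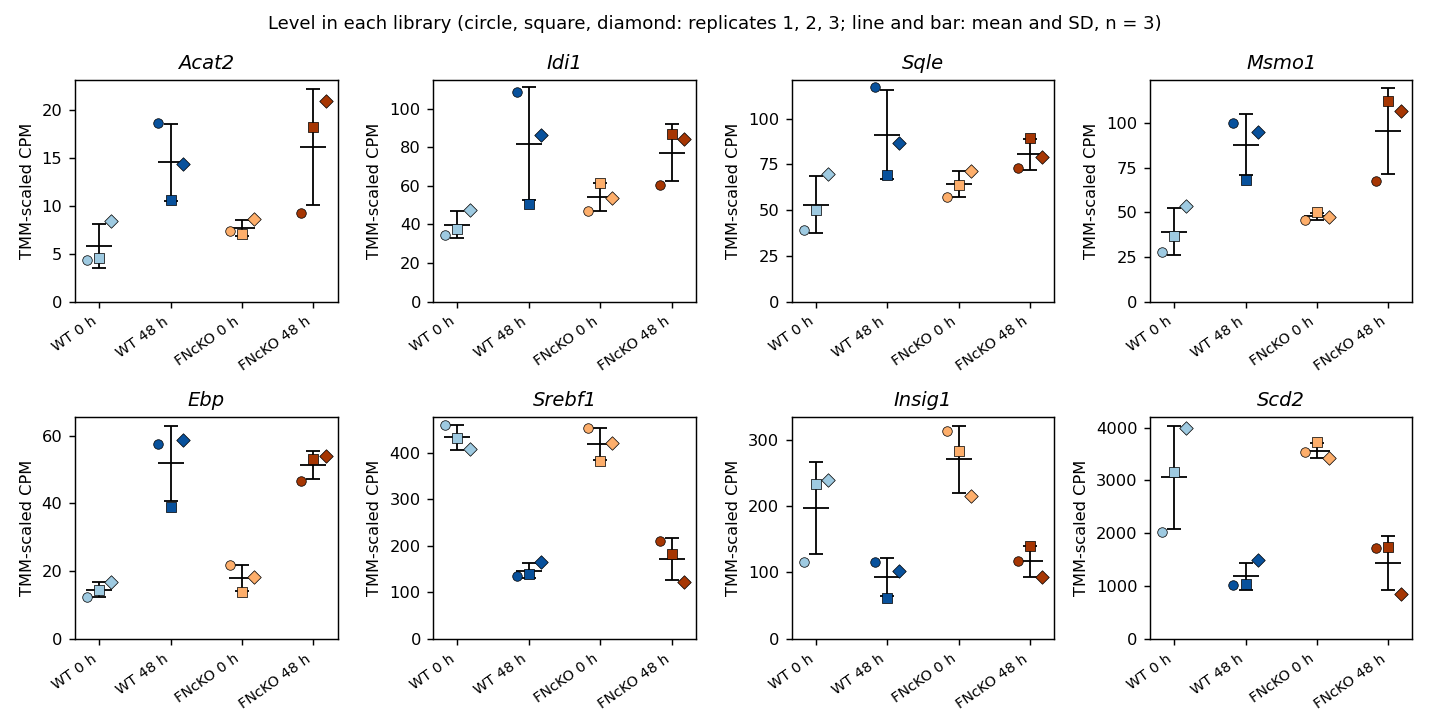
Level in every library of the 8 genes that passed in WT, in TMM-scaled CPM, by group, with mean and SD of 3 libraries; circle, square and diamond are replicates 1, 2 and 3. Ebp, Msmo1, Acat2 and Idi1 have all WT 48 h libraries above the WT 0 h ones, Sqle does not, and Srebf1, Insig1 and Scd2 have all 48 h libraries below the 0 h ones in both genotypes.

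Among the regulators, Srebf1 and Insig1 fell in both genotypes and Srebf2 and Stard4 passed in neither. The share called was 50% of only 4 genes in each genotype, against 32.6% of all genes in WT and 24.8% in FNcKO. Srebf1 (chromosome 11, 60199089 to 60220604) encodes SREBP-1, the SREBP best known for driving fatty acid synthesis. Its WT levels were 460.4, 433 and 408 CPM at 0 h and 136, 139 and 167 at 48 h. Its FNcKO levels were 454, 383 and 422 CPM at 0 h and 211, 183 and 122 at 48 h. The ranges at 0 h and 48 h lay far apart in both genotypes, with a wider spread in FNcKO at 48 h. Srebf1 fell 2.95-fold in WT (log2 −1.56 ± 0.20, edgeR adjusted p = 0.000129) and 2.44-fold in FNcKO (log2 −1.29 ± 0.20, edgeR adjusted p = 0.000655), and passed in all 21 alternative analyses of either comparison. Counts per gene do not separate the 1a and 1c isoforms of SREBP-1.

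Insig1 (chromosome 5, 28071412 to 28078662) encodes an endoplasmic reticulum protein that retains SREBPs when sterols are plentiful and is itself a known SREBP target. Its WT levels were 116, 234 and 239.7 CPM at 0 h and 115, 61.4 and 102 at 48 h. Replicate 1 at 0 h was nearly level with replicate 1 at 48 h, and the other 0 h libraries were far above. Its FNcKO levels were 313, 283 and 214 CPM at 0 h and 118, 139.6 and 92.6 at 48 h, with a clear gap between the times. Insig1 fell 2.11-fold in WT (log2 −1.08 ± 0.30, edgeR adjusted p = 0.0141) and 2.32-fold in FNcKO (log2 −1.21 ± 0.30, edgeR adjusted p = 0.00980). The WT call was lost without WT 0 h replicate 2 or 3 and with library totals as the scale.

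Srebf2, which encodes the SREBP best known for cholesterol synthesis and uptake, had 174 ± 22.0 CPM (SD, n = 3) in WT 0 h, 198 ± 37.3 in WT 48 h, 179 ± 44.6 in FNcKO 0 h and 210.0 ± 18.8 in FNcKO 48 h. Its log2 values were 0.18 (95% interval −0.21 to 0.58) and 0.23 (−0.16 to 0.62), and the ranges of the groups overlapped. Stard4, a soluble carrier of cholesterol between membranes, had 21.6 ± 2.90 and 20.2 ± 9.66 CPM in WT and 18.4 ± 7.80 and 19.0 ± 4.05 in FNcKO. Its libraries spread more within WT 48 h, from 10.3 to 29.6 CPM, than its group means differed.

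Of the 6 fatty acid genes, Scd2 fell in both genotypes and no other gene passed in either in edgeR. The share called was 16.7% in each genotype, against 32.6% of all genes in WT and 24.8% in FNcKO. Scd2 (chromosome 19, 44293676 to 44306862) had 2034, 3162 and 3986 CPM in WT 0 h and 1023, 1040.5 and 1487 in WT 48 h. In FNcKO it had 3533, 3721 and 3434 CPM at 0 h and 1722, 1746 and 846 at 48 h. No 48 h library reached a 0 h library of its genotype, and the lowest 0 h library was WT replicate 1. Scd2 fell 2.59-fold in WT (log2 −1.37 ± 0.32, edgeR adjusted p = 0.00591) and 2.48-fold in FNcKO (log2 −1.31 ± 0.32, edgeR adjusted p = 0.00967). Its paralog Scd1 had 129 ± 43.1 and 82.3 ± 30.2 CPM (SD, n = 3) in WT and 119 ± 60.5 and 74.9 ± 28.8 in FNcKO, with log2 values of −0.65 and −0.67 that did not pass. The other desaturase genes nearby, Scd3 and Scd4, had at most 27 counts in a library.

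Acly, the ATP citrate lyase that supplies cytosolic acetyl-CoA to both pathways, stood at 193, 175 and 183 CPM in WT 0 h and 325, 184 and 336 in WT 48 h. In FNcKO it stood at 188, 179 and 169 CPM at 0 h and 196, 341 and 321 at 48 h. In each genotype 2 of the 48 h libraries were far above 0 h, while WT replicate 2 and FNcKO replicate 1 were close to it. The log2 differences of 0.62 (edgeR adjusted p = 0.0640) and 0.68 (edgeR adjusted p = 0.0532) did not pass. DESeq2 did call Acly in FNcKO (DESeq2 adjusted p = 0.0390). Fasn, the fatty acid synthase, had 349.8, 380.5 and 341 CPM in WT 0 h and 321, 218 and 324 in WT 48 h, without overlap, and 338 ± 93.8 and 339.8 ± 75.2 (SD, n = 3) in FNcKO (log2 −0.31 and 0.01, edgeR adjusted p = 0.333 and 0.987). Acaca, the acetyl-CoA carboxylase that makes malonyl-CoA, had log2 values of −0.06 and 0.24, and Elovl6, which lengthens palmitate, 0.23 and −0.22.

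Within a group, single libraries were low or high for most sterol enzymes at once. WT 48 h replicate 2 was the lowest library of its group for 16 of the 18 enzymes, where it was lowest for 35.8% of all tested genes, and FNcKO 48 h replicate 1 was lowest for 15 of 18, against 37.1%. WT 0 h replicate 3 was the highest of its group for 16 of 18, against 31.4%. Summed over the 18 enzymes the level was 616, 647 and 866 CPM in WT 0 h replicates 1 to 3 and 1194, 733 and 1049.8 in WT 48 h. In FNcKO it was 896, 856 and 839.9 CPM at 0 h and 839.5, 1184 and 1049.8 at 48 h, where replicate 1 was at the 0 h level.

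**Figure D4:**
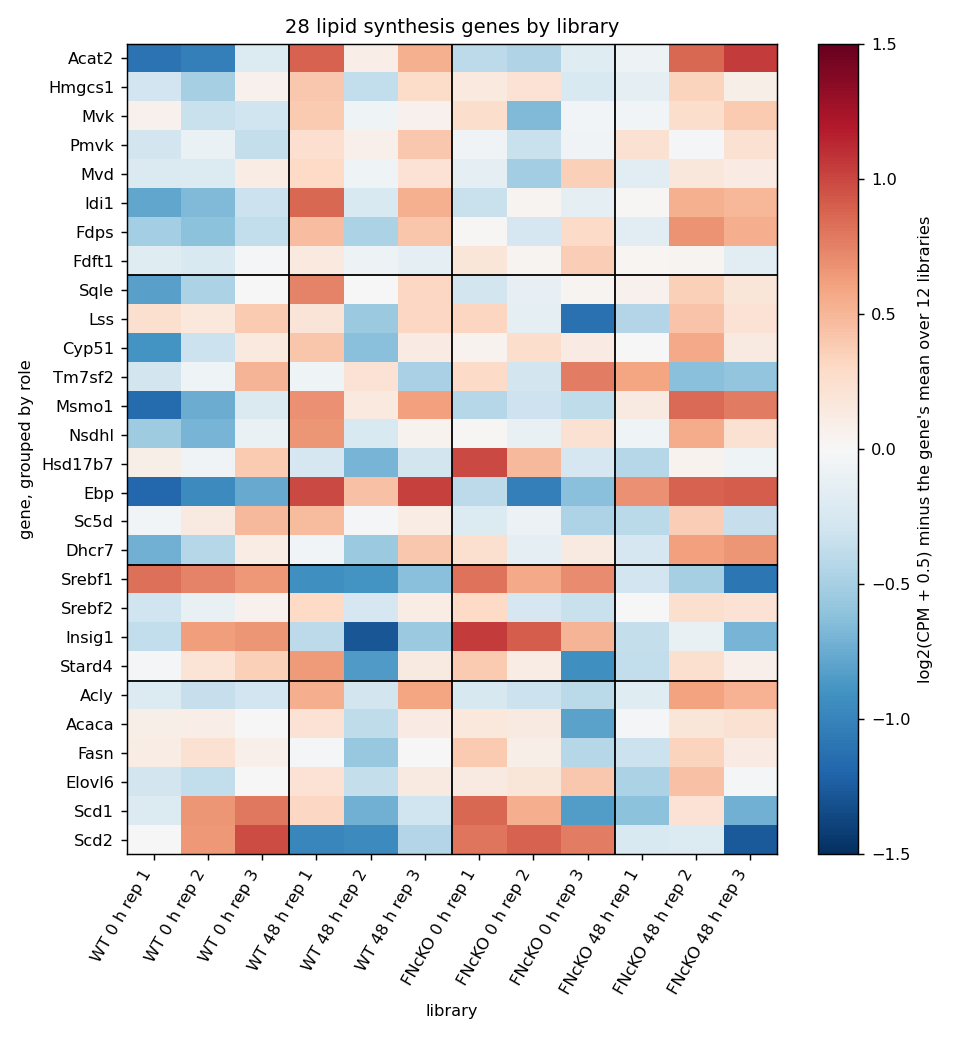
Deviation of each of the 28 genes from its own mean over the 12 libraries, on the log2(CPM + 0.5) scale, libraries in columns by group and genes in rows by role. The columns of WT 48 h replicate 2 and FNcKO 48 h replicate 1 are lower than those of the other 48 h libraries over most sterol enzymes. From 0 h to 48 h the rows of Srebf1, Insig1 and Scd2 go down and those of Ebp, Msmo1 and Acat2 go up.

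Markers of fiber cells varied across the same libraries. The sum of the 16 fiber markers was 3724, 20319 and 14670.0 CPM in WT 48 h replicates 1 to 3 and 37163, 16939 and 2511 in FNcKO 48 h. The 48 h library of each genotype with most fiber marker RNA was the one with the lowest enzyme sum. At 0 h the fiber sums were 76356, 40670.0 and 52654 CPM in WT and 53013, 60231 and 118720 in FNcKO. With the log2 fiber marker sum as a covariate, added after the data were seen, Ebp and Srebf1 were the 2 of 28 members still past the threshold in either genotype, where without it 8 and 6 were. That is 7.14% of the members in each genotype, against 12.8% of all genes in WT and 6.66% in FNcKO under the same covariate, so calls fell across all genes. Of the other called members, Msmo1 then had log2 values of 0.83 in WT and 0.61 in FNcKO, Acat2 0.76 and 0.41, Insig1 −1.26 and −1.38, and Scd2 −0.95 and −0.90. Idi1 had 0.62 and Sqle 0.56 in WT. This sum also differed between 0 h and 48 h, so the covariate shares part of its variation with time. Immune markers varied as well, with a macrophage and monocyte sum of 846, 482 and 311 CPM and a neutrophil sum of 668, 117 and 122 in WT 48 h replicates 1 to 3. In FNcKO 48 h these sums were 204, 308 and 463 CPM and 67.6, 95.5 and 209.8. The part of fiber and immune cell RNA in the members' changes was not tested beyond the covariate. Epithelium markers, of which none of 12 rose and 7 fell in WT and 8 in FNcKO, moved in the same direction as Srebf1, Insig1 and Scd2, and their part was not tested.

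**Figure D5:**
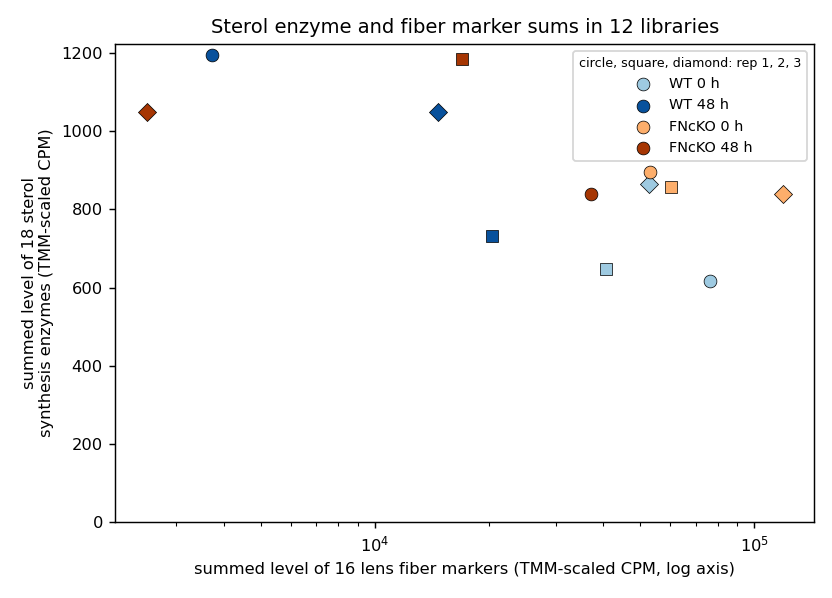
Summed level of the 18 sterol synthesis enzymes against that of the 16 lens fiber markers in each of the 12 libraries, both in TMM-scaled CPM, the fiber axis on a log scale, colours by group and shapes by replicate. WT 48 h replicate 2 (733 CPM of enzymes, 20319 of fiber markers) and FNcKO 48 h replicate 1 (839.5 and 37163) lie below and to the right of the other libraries of their groups.

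Between genotypes no member passed at either time. At 48 h 0 of 28 members passed in edgeR, against 0.24% of all genes. An unadjusted edgeR p under 0.05 was found for 0 members, against 796 of 14560 genes. Their log2 values for FNcKO against WT ran from −0.29 (Sc5d) to 0.42 (Dhcr7, 95% interval −0.16 to 0.99). At 0 h 0 of 28 passed in edgeR, against 0.144% of all genes. An unadjusted edgeR p under 0.05 was found for 1 member, Fdft1, against 1603 of 14560 genes. Fdft1 stood at 59.4, 57.5 and 66.4 CPM in WT 0 h and at 76.2, 69.5 and 87.1 in FNcKO 0 h without overlap (log2 0.34 ± 0.15, edgeR adjusted p = 0.420). The genotypes did not overlap at 0 h for 4 of 28 members and for 2421 of 14560 genes. Of the 18 sterol enzymes 16 had a log2 value above 0 at 0 h, against 51.2% of all tested genes, the largest being that of Fdps at 0.53 (95% interval 0.01 to 1.06). The enzymes varied together by library, so their signs are not independent of each other. Their sum was 616, 647 and 866 CPM in WT 0 h and 839.9 to 896 in FNcKO 0 h. WT replicate 3 thus lay within the FNcKO range, and the right counts of WT 0 h replicate 1 are unresolved. Markers of other cells differed between the same libraries. The corneal sum was 749.8 to 1123 CPM in WT 0 h and 1792 to 2688 in FNcKO 0 h, mostly from Aldh3a1, with Kera at 0 in all 6 libraries. The adipocyte and sebaceous sum was 0.502 to 1.12 CPM in WT 0 h and 5.19 to 11.6 in FNcKO 0 h, mostly from Lep in FNcKO. Neither range overlapped between the genotypes. Because the sums came mostly from Aldh3a1 and, in FNcKO, from Lep, they are no clear measure of those cell types. Their part in the enzyme values was not tested. At 48 h 9 of 18 were above 0. The difference of the 48 h responses between genotypes passed for 0 members in edgeR, against 0% of all genes. Its unadjusted edgeR p was under 0.05 for 0 members, against 735 of 14560 genes. For Ebp that difference was −0.32 (95% interval −0.90 to 0.26), for Srebf1 0.27 (−0.27 to 0.82), for Insig1 −0.13 (−0.94 to 0.68) and for Scd2 0.06 (−0.81 to 0.94). DESeq2 also called 0 members in all 3 of these comparisons. Over time DESeq2 called 9 members in WT and 7 in FNcKO, where edgeR called 8 and 6.

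Genes around the 28 were read from lists chosen by function. Of 16 tested enzymes of other sterol and isoprenoid steps, 2 rose in WT and none fell, and 2 rose and 1 fell in FNcKO. Lbr, a nuclear envelope protein that is also a sterol 14-reductase like Tm7sf2, rose in both (log2 1.00 ± 0.28, edgeR adjusted p = 0.0169, and 1.28 ± 0.29, edgeR adjusted p = 0.00587). Of 12 genes for SREBP processing and its control, 1 rose and 1 fell in WT and 1 rose in FNcKO. The riser was Tmem97, a sterol-regulated membrane protein (log2 1.42 ± 0.33, edgeR adjusted p = 0.00586, and 1.08 ± 0.33, edgeR adjusted p = 0.0283), and the gene that fell was Mbtps1, the site-1 protease that cuts SREBPs (log2 −0.50, edgeR adjusted p = 0.0258). Of 16 genes of sterol uptake, esterification and traffic, 4 rose and 2 fell in WT and 4 rose and 1 fell in FNcKO. Nceh1, a cholesterol ester hydrolase, rose in both (log2 1.42 ± 0.22 and 1.38 ± 0.22, edgeR adjusted p = 0.000496 and 0.000868).

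A list of 14 genes held the sterol sensor LXR, its targets, genes of sterol efflux and enzymes that make or convert oxidized sterols. Of these, 1 rose and 3 fell in WT and 1 rose and 4 fell in FNcKO. The 2 genes named next are such enzymes and stand for neither LXR targets nor efflux. The riser in both was Ch25h, the enzyme that makes 25-hydroxycholesterol, an oxysterol known to block SREBP processing (log2 1.68 ± 0.38, edgeR adjusted p = 0.00513, and 3.01 ± 0.43, edgeR adjusted p = 0.000434). Cyp27a1, which makes 27-hydroxycholesterol, fell in WT (log2 −2.26 ± 0.61, edgeR adjusted p = 0.0124). Of 27 other genes of fatty acid synthesis and activation, 7 rose and 5 fell in WT and 5 rose and 9 fell in FNcKO. Acsl5 and Acsl4, which activate long-chain fatty acids, rose in both, by log2 1.68 and 1.94 in WT and 2.13 and 1.49 in FNcKO. Lpin1, a phosphatidate phosphatase, fell in both (log2 −1.25 and −1.20), and Thrsp, a lipogenic protein that is a known SREBP-1 target, fell in FNcKO (log2 −2.16 ± 0.43, edgeR adjusted p = 0.00280). Of 19 tested genes of fatty acid oxidation, 2 rose and 4 fell in WT and 1 rose and 4 fell in FNcKO. Ppara, a nuclear receptor that drives oxidation genes, fell in WT (log2 −1.48 ± 0.30, edgeR adjusted p = 0.00235), and Acadl, the long-chain acyl-CoA dehydrogenase, rose in both (0.77 and 0.62). A gene given here or above for only 1 genotype is not shown to differ between genotypes. The difference of the 48 h responses passed for 0% of all genes in edgeR. In the 6 lists the share of tested genes called was 12.5% to 44.4% in WT, on both sides of the 32.6% of all genes, and 8.33% to 51.9% in FNcKO, on both sides of 24.8%.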

How the data were processed

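Expression was measured by RNA sequencing of 12 libraries, 3 for each of 4 groups, prepared with a TruSeq kit from total RNA, per the labels' protocols. The authors deposited a whole-number read count and an RPKM value per gene for each library, with mm10 coordinates, and the RPKM values were used only for a check. They equalled the count per length and per library total within a relative difference of 5.1e-15. The submitters' processing notes name HTSeq 0.6.1p1, TopHat2 2.1.0, edgeR 3.16.5 and Trim Galore 0.4.4, next to FastQC, bedtools 2.17 and SAMtools 1.4, without roles or options. The sources used here do not give the strand setting or how reads with several matches were counted.

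A combined deposited table holds 9 libraries, of which 8 count columns equal the library's own file. In the column named for WT 0 h replicate 1 all 24147 values are those of FNcKO 0 h replicate 1, and 7368 equal the library's own. Which of these holds the right counts for WT 0 h replicate 1 is unresolved. The libraries' own files were used throughout, both 0 h replicate 1 libraries were left out as an alternative, and 9 RPKM columns of the combined table were not used. Symbols listed more than once (163 entries) included no member.

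The counts were tested with edgeR 4.0.16 under R 4.3.3. The filter filterByExpr left 14560 of 24147 genes, and TMM factors ran from 0.754 to 1.165. All 12 libraries entered one quasi-likelihood fit with a mean per group and robust dispersion. There were 5 comparisons, namely the 48 h response of either genotype, FNcKO against WT at either time, and how far the 48 h responses differed. P-values were adjusted by Benjamini-Hochberg over all tested genes, with a threshold of 0.05. The scripts were tested on simulated data. DESeq2 1.42.0, other scalings, filters and left-out libraries were alternatives.

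All 28 members are named. A member that passed the threshold is given in every library, and other genes come from lists by function, at most the 3 with the largest log2 change past the threshold per list and comparison. The members and lists were chosen with earlier results of these data known. Promoter windows are RefSeq sequences of GRCm38.p6 matched by symbol. Replicate numbers were not used as pairs, as they are not said to pair animals. Same-numbered libraries did not deviate together over all pairs, which does not exclude a shared origin.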

Additional observations from a re-analysis of the deposited data

How the results depend on the processing

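Ebp and Srebf1 passed in both genotypes under all 21 alternatives of the edgeR analysis over time. Of the values of single members under the alternatives, 2694 kept direction and side of the threshold, 170 uncalled ones changed sign, 21 came to pass, 27 ceased to pass and 0 called ones changed direction. These values cover all 5 comparisons, and most belong to members not called in the main fit, which had no call to lose. Among called members the fewest passes were those of Acat2 in FNcKO, 12 of 21 alternatives, and Sqle in WT, 16 of 21. The number of members called in WT was 8, ranged from 5 (without WT 0 h replicate 2) to 11 (without WT 48 h replicate 2) when 1 library was left out, and was 2 with the fiber marker sum as a covariate. In FNcKO it was 6, ranged from 5 to 7, and was 2 with the covariate. The cause was not tested.

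Counts over all genes moved as well. In WT over time 4745 genes passed, 3209 to 5220 with 1 library left out and 1865 with the covariate. In FNcKO over time 3611 passed, 2232 (without FNcKO 48 h replicate 3) to 4095 with 1 library left out, 2299 without both 0 h replicate 1 libraries and 969 with the covariate. Between genotypes at 48 h 35 passed, 122 in DESeq2, 7 with only the compared groups in the fit, 14 without both 0 h replicate 1 libraries and 10 to 46 with 1 library left out. At 0 h 21 passed, 130 in DESeq2, 10 with library totals as the scale, 2 without both 0 h replicate 1 libraries, 38 with the covariate and 2 to 28 with 1 library left out. The difference of the responses passed for 0 genes in edgeR (735 at an unadjusted p under 0.05), 28 in DESeq2, 3 with the covariate and 0 to 1 with 1 library left out. No member passed in the genotype comparisons under any of these.

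With the replicate number as a replicate block, 8 members passed in WT over time and 6 in FNcKO, the same genes as without it, and the difference of the responses passed for 1 of all genes. Correlations between the deviations of same-numbered libraries ran from −0.488 to 0.307. Deviations from a mean of 3 libraries are tied to each other, so these values cannot show whether same-numbered libraries share an origin. At these depths Acat2 had as few as 43 counts in a library, and a member that missed the threshold is not shown to be unchanged.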
